A study of Vitis vinifera with 15 samples.

Results

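Leaves of the grapevine cultivar “Gaglioppo” were profiled on 5 rootstocks, and 160 of the 29970 genes measured are described here. They carry the category of transcription factor activity in the study's list of 2692 genes that differed at least 4-fold from GAG-1103P in 1 or more graft combinations. That category held 208 genes, from which 28 WRKY genes, 18 NAC genes and 2 MYB genes studied with stilbene synthesis were left out. Expression against GAG-1103P therefore chose the genes, so that levels and differences against GAG-1103P are given as a description with no test. The study also divided its list by the pattern over the combinations, and 74 of the 160 genes fell in its Cluster 1 and 86 in its Cluster 2. All 160 genes passed the filter on low values, a mean of at least 0.1 FPKM (fragments scaled by transcript length and library size) over the 15 libraries. Of them, 136 had a mean of at least 1 FPKM and 9 were at 0 in at least 1 library.

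A transcription factor binds a short DNA sequence near a gene through a conserved domain, and families are named after that domain, such as MYB, basic helix-loop-helix (bHLH), basic leucine zipper (bZIP), homeobox, or the zinc fingers that hold a zinc ion. Plants have large numbers of them, and in leaves they control development of the photosynthetic tissue, responses to water deficit and abscisic acid (ABA), and defense. The category of the study is wider than that. RING fingers are mostly found in ubiquitin ligases that mark proteins for degradation, mTERF proteins act on transcripts of mitochondria and plastids, WD-40 repeats form scaffolds for protein complexes, and GNAT proteins are acetyltransferases. Genes are given by their identifiers, with the names of the annotation. Roles stated for named factors are known from Arabidopsis unless another species is given.

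All 5 combinations shared the scion, the Librandi CVT 80 clone of “Gaglioppo”, and the vines were 3 years old and stood in 1 vineyard, in a block for each combination. Block and rootstock therefore cannot be told apart. The rootstocks were 1103 Paulsen (Vitis rupestris and V. berlandieri) in GAG-1103P, which served as reference, 17-37Mgt (the same species) in GAG-17-37, 3309 Couderc (V. riparia and V. rupestris) in GAG-3309C, Kober 5BB (V. riparia and V. berlandieri) in GAG-KOB and 41B (V. vinifera and V. berlandieri) in GAG-41B. Each combination had 3 libraries, A, B and C, and each library was a pool of 2 fully expanded leaves without signs of senescence from each of 3 plants, taken at the end of August.

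In bulk leaves, fewer cells of a type and less RNA per cell cannot be told apart. The summed FPKM of a library was between 1558970 and 1797630 in 4 combinations and between 2208240 and 2221130 in GAG-41B. In every combination the libraries B and C were closer to each other than to A, with a median absolute difference of 0.06 to 0.11 between B and C against 0.15 to 0.21 between A and the others, on the log2 scale over the 109 of the 160 genes whose mean reached 1 FPKM in every combination. Marker genes were read from the study's list only. The 16 laccase genes, taken as markers of lignifying tissue, summed to 21.2 to 24.6 FPKM in GAG-1103P and 99.0 to 114.9 in GAG-3309C. That sum was 151.9 to 172.5 FPKM in GAG-17-37, 200.3 to 243.6 in GAG-KOB and 345.5 to 391.5 in GAG-41B, and none of the genes was at 0 throughout a combination. Genes of the list were chosen by differences from GAG-1103P, which favored such an order of the sums. The part of laccase in the differences below was not tested. The 15 genes annotated with senescence summed to 1918 to 2149 FPKM in GAG-1103P, 1361 to 1608 in GAG-41B and, lowest, 1143 to 1252 in GAG-KOB. A phloem protein gene was at 1.55 FPKM or less and the sum of both LHCB3 genes of the light-harvesting complex at 5.51 FPKM or less in every library, so that neither marked a tissue here.

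The largest differences from GAG-1103P were in GAG-41B. There, 67 of the 160 genes were at least 4-fold higher and 82 at least 4-fold lower, where 8.75% and 4.79% of all 21364 genes tested were. These shares follow from the choice of the genes. In both directions together the share of all genes was 13.5%. In GAG-KOB 14 genes were past 4-fold (3.49% of all genes), 10 of them higher. In GAG-3309C these were 8 (2.25%), 5 of them higher, and in GAG-17-37 2 (1.54%), both higher. For 132 genes GAG-41B was the only combination past 4-fold. The median difference from GAG-1103P over the 160 genes was -2.02 in GAG-41B, -0.22 in GAG-KOB, -0.18 in GAG-3309C and -0.10 in GAG-17-37, on the log2(FPKM + 0.1) scale used for all differences here, and 0 over all genes tested. With the same FPKM total in every library the median over all genes in GAG-41B was -0.38, and 47 of the 160 genes were then at least 4-fold higher there and 86 lower. Low genes differ by more than this scale shows.

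Levels in GAG-41B stood outside those of all 12 other libraries for most genes. They were above them for 67 (41.9%) and below them for 78 (48.8%), against 22.8% and 20.3% of all genes tested. The choice of the genes, mostly through GAG-41B, favored this. GAG-1103P and GAG-41B were most often the ends of the order, with GAG-KOB beside GAG-41B. Of the 73 genes with a higher fitted level in GAG-41B than in GAG-1103P, 54 had those combinations as the ends and 58 had GAG-KOB as second highest. Of the 87 with a lower level, 70 had those ends and 62 had GAG-KOB as second lowest. Both held together for 43 of the 73 and 54 of the 87, counts for which no share over all genes was taken. They give a rank of GAG-KOB and not its distance from GAG-41B. Having these ends was favored by the choice of the genes, and was found for 40.2% of all genes tested that were higher and 36.6% of those lower in GAG-41B. Over all genes tested, GAG-KOB was second highest for 47.1% of the genes higher in GAG-41B and second lowest for 46.7% of those lower there.

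**Figure D1:**
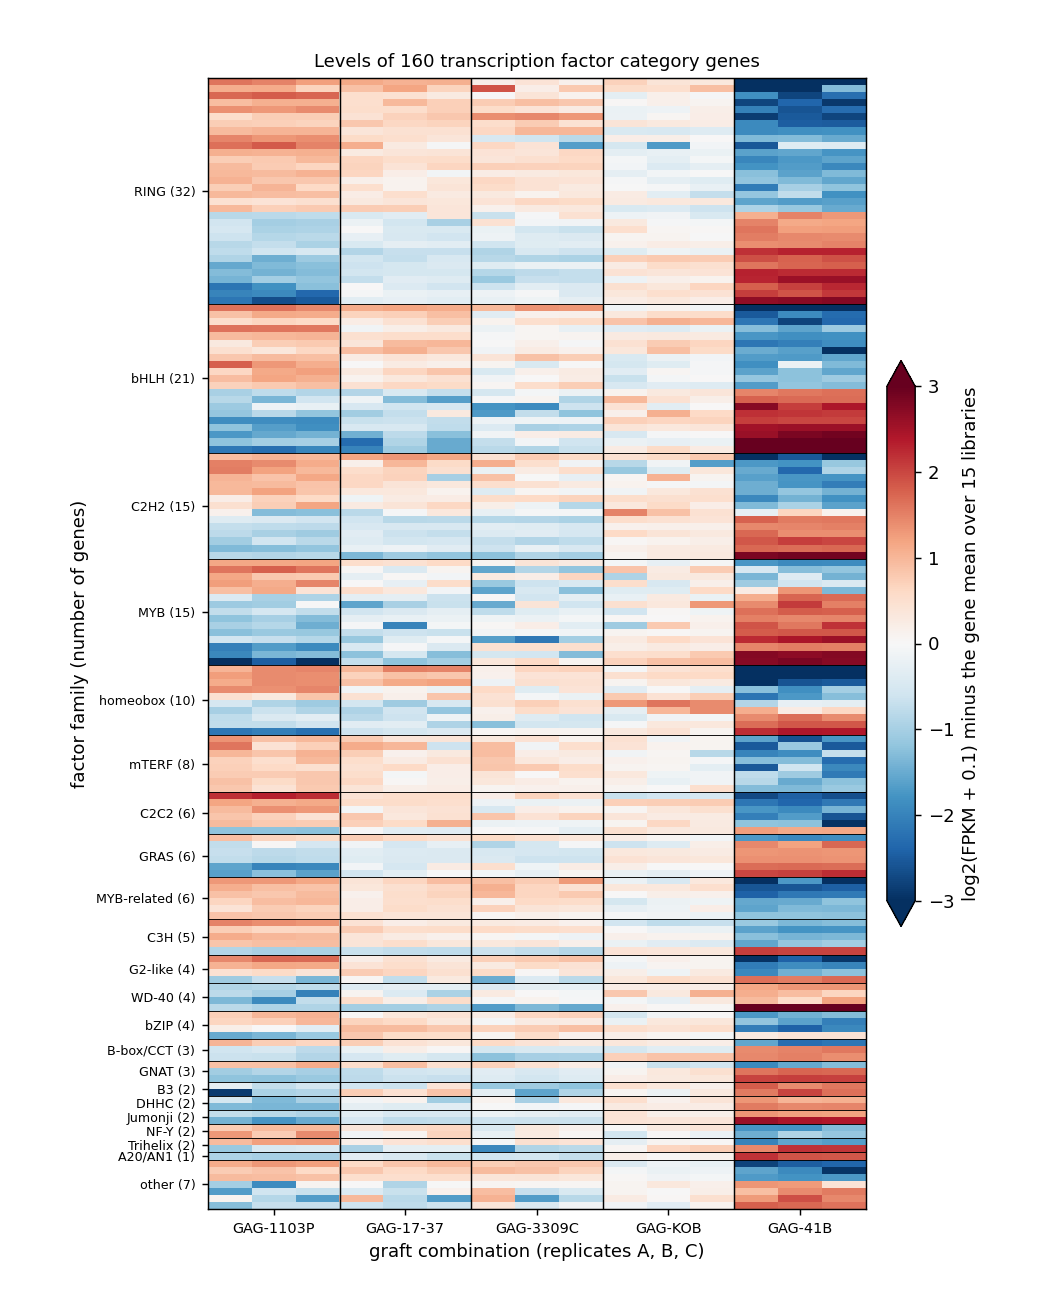
Level of each of the 160 genes (lines, grouped by family with the number of genes) in each of the 15 libraries (columns), as log2(FPKM + 0.1) minus the gene's mean over the libraries, with colors cut at 3 in either direction. The columns of GAG-41B carry the strongest colors in nearly every family, those of GAG-1103P mostly the opposite ones, and GAG-KOB is close to the gene means.

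Around the limit of the study's list, the largest difference of a gene from GAG-1103P was taken as the log2 ratio of mean FPKM. The genes just inside were the mTERF genes Vv05s0020g01640 and Vv05s0020g01630, at 2.001 and 2.002, and a MYB-related gene, Vv01s0026g01050, at 2.03. No category was at hand for genes outside the list. On the log2(FPKM + 0.1) scale 9 of the 160 genes were under 4-fold in every combination, among them both these mTERF genes (-1.92 and -1.94 in GAG-41B). A homeodomain-like gene, Vv06s0004g01900, was close above the limit with 2.005 on this scale.

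Whether combinations other than the reference differed from each other was tested with limma in the 3 contrasts between GAG-KOB, GAG-3309C and GAG-17-37, which the choice of the genes did not use directly. Between GAG-KOB and GAG-3309C, 53 of the 160 genes were higher in GAG-KOB and 33 lower at an adjusted p of 0.05 or less, where 18.7% and 16.2% of all genes tested were. With the same FPKM total in every library the split was 44 and 42. Between GAG-KOB and GAG-17-37, 54 genes were higher in GAG-KOB and 39 lower (17.4% and 15.9% of all genes), or 47 and 53 with equal totals. Between GAG-3309C and GAG-17-37, 19 genes were higher in GAG-3309C and 21 lower (7.37% and 9.53%).

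Both arms of such a contrast had been compared with GAG-1103P when the list was made. Among the 142 genes that were under 4-fold from GAG-1103P in both GAG-KOB and GAG-3309C, 73 passed the test between them, where 34.9% of all genes did. Between GAG-KOB and GAG-17-37 these were 80 of 145 (33.3%), and between GAG-3309C and GAG-17-37 34 of 151 (16.9%). Being under 4-fold was read on the log2(FPKM + 0.1) scale. Low genes past 4-fold by the ratio of mean FPKM could thus remain, such as Vv13s0064g01060 at 4.14-fold in GAG-KOB. The median absolute difference over the 160 genes was 0.52, 0.57 and 0.25 in the 3 contrasts, against 0.28, 0.27 and 0.18 over all genes tested.

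In the contrasts with GAG-KOB the direction of these differences went mostly with that in GAG-41B, in libraries the contrasts do not share. It did so for most of all genes that passed as well. Of the 53 genes higher in GAG-KOB than in GAG-3309C, 44 had a higher fitted level in GAG-41B than its reference, and all 33 lower ones had a lower one there. Of the 54 genes higher in GAG-KOB than in GAG-17-37, 51 were higher in GAG-41B, and of the 39 lower ones 37 were lower. Over all genes that passed the test, the same direction was found for 84.6% and 84.2% in the first contrast and 90.1% and 88.2% in the second. Among the 160 genes these shares were 83.0% of the higher and all of the lower genes in the first contrast, and 94.4% and 94.9% in the second. Between GAG-3309C and GAG-17-37, 14 of the 19 higher and 14 of the 21 lower genes had the direction of GAG-41B, where 66.5% and 46.4% of all genes passing did.

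**Figure D2:**
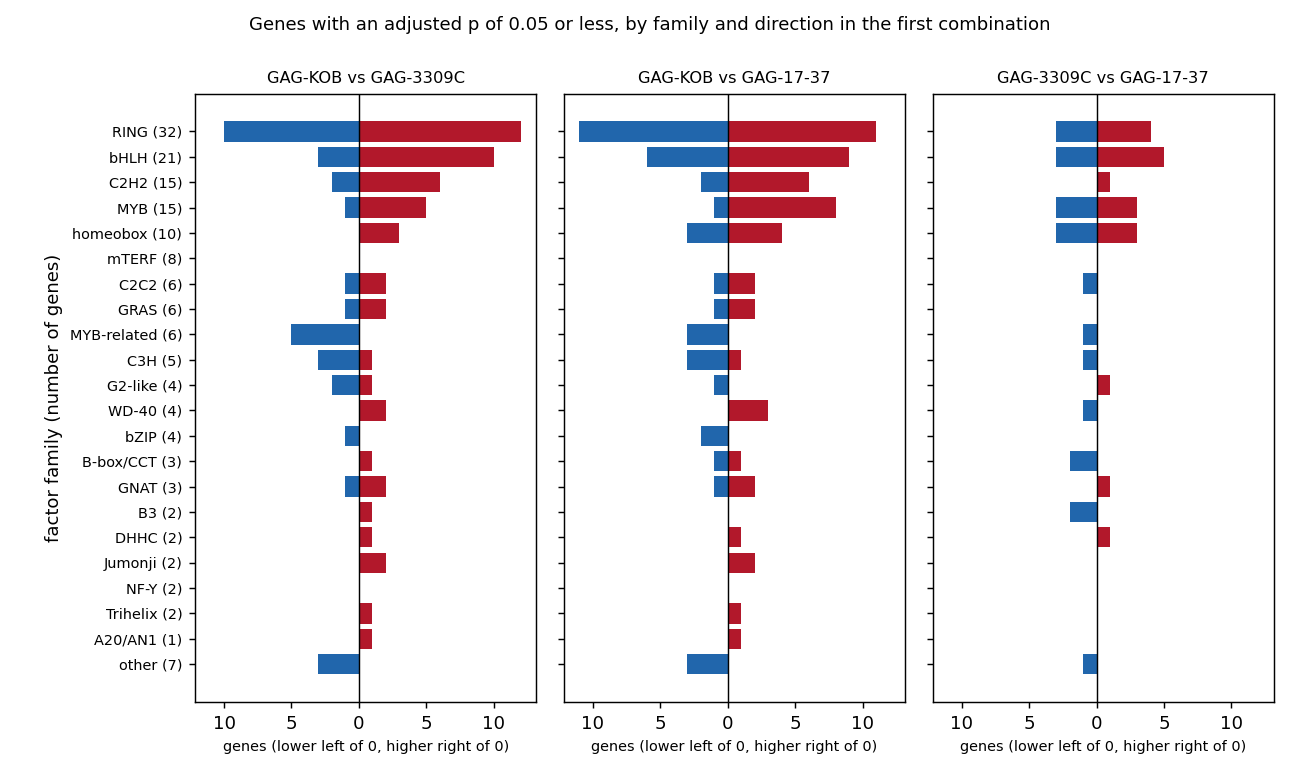
Number of genes of each family with an adjusted p of 0.05 or less in the 3 tested contrasts, lower in the first combination to the left of 0 and higher to the right, with the size of the family in brackets. From the left panel to the right, 34.9%, 33.3% and 16.9% of all genes tested passed. RING and bHLH, the largest families, have the longest bars for higher levels in GAG-KOB. RING also has the longest for lower ones, with 12 higher and 10 lower against GAG-3309C and 11 and 11 against GAG-17-37. MYB genes were mostly higher in GAG-KOB (against GAG-3309C 5 and 1, or 3 and 2 with equal FPKM totals), MYB-related genes had calls only for lower levels, and mTERF and NF-Y genes had none.

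MYB factors of the R2R3 type numbered 15. Against GAG-1103P, 10 were at least 4-fold higher in GAG-41B and 2 at least 4-fold lower, with a family median of 2.41. In the tested contrasts 5 rose and 1 fell in GAG-KOB against GAG-3309C (3 and 2 with equal FPKM totals), 8 rose and 1 fell in GAG-KOB against GAG-17-37, and 3 rose and 3 fell in GAG-3309C against GAG-17-37. Over all genes tested, 34.9%, 33.3% and 16.9% passed in these contrasts.

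MYB78 (Vv07s0005g01950) had the largest difference of the family. Its levels were 0.193, 0.347 and 0.148 FPKM in GAG-1103P, 1.42, 0.971 and 1.12 in GAG-17-37, 3.03, 3.66 and 2.50 in GAG-3309C, 3.91, 4.41 and 4.59 in GAG-KOB and 16.3, 17.4 and 16.2 in GAG-41B. The 5 combinations did not overlap at any step. It rose in GAG-KOB against GAG-17-37 by 1.81 ± 0.21 (SE, limma adjusted p = 2.88e-05) and in GAG-3309C against GAG-17-37 by 1.32 ± 0.21 (adjusted p = 0.000845), while GAG-KOB and GAG-3309C differed by 0.49 ± 0.21 with an adjusted p of 0.0895.

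MYB103 (Vv19s0015g01280), a regulator of anther tapetum and of secondary cell wall formation, was at 0.112, 0.215 and 0.230 FPKM in GAG-1103P and 5.40, 5.09 and 5.36 in GAG-41B. In GAG-KOB it was at 1.04, 1.07 and 1.29 FPKM, above GAG-17-37 with 0.248, 0.464 and 0.237 and GAG-3309C with 0.464, 0.455 and 0.228. The rise in GAG-KOB was 1.60 ± 0.27 against GAG-17-37 (adjusted p = 0.000581). Low levels in all but GAG-41B limit its precision.

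A gene annotated as MYB14, Vv12s0134g00490, lies at another locus than the MYB14 gene left out with the stilbene regulators. It was at 0.388, 0.244 and 0.653 FPKM in GAG-3309C and 1.74, 2.22 and 1.93 in GAG-KOB, with no overlap, and reached 7.05, 8.19 and 8.88 in GAG-41B. GAG-1103P, with 0.932, 0.846 and 0.741 FPKM, and GAG-17-37, with 0.589, 1.08 and 1.36, had means between those of GAG-3309C and GAG-KOB. It had the largest rise among the 160 genes in GAG-KOB against GAG-3309C, 2.03 ± 0.29 (adjusted p = 0.000157).

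MYB62 (Vv17s0000g03560), which takes part in the response to phosphate starvation, was the most abundant of the MYB genes in GAG-41B. Its levels were 36.6, 40.2 and 39.4 FPKM in GAG-1103P, 53.1, 56.8 and 55.2 in GAG-17-37, 80.6, 84.5 and 82.2 in GAG-3309C, 92.7, 89.7 and 92.1 in GAG-KOB and 310.2, 321 and 319.8 in GAG-41B. Against GAG-17-37 it rose by 0.73 ± 0.04 in GAG-KOB and 0.58 ± 0.04 in GAG-3309C (adjusted p = 1.32e-07 and 2.48e-06). GAG-KOB and GAG-3309C differed by 0.15 (adjusted p = 0.0168), a call that was lost without GAG-KOB replicate A or C, with equal FPKM totals, with quantile normalization or in a fit of the 6 libraries alone (adjusted p = 0.0513 to 0.979).

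MYB68 (Vv11s0016g02780), known from roots, had means of 3.80 FPKM in GAG-1103P, 11.5 in GAG-17-37, 19.8 in GAG-3309C, 16.5 in GAG-KOB and 40.7 in GAG-41B. GAG-KOB and GAG-3309C, where its mean was higher, differed by -0.27 (adjusted p = 0.0843). MYB36 (Vv08s0007g05030), which directs formation of the Casparian strip in the root endodermis, went from 10.1 ± 1.09 (SD, n = 3) FPKM in GAG-1103P to 63.4 ± 1.43 in GAG-41B. MYB108 (Vv05s0077g00500), studied in the response to the fungus Botrytis, was at 3.20 to 5.54 FPKM in the 12 libraries outside GAG-41B and at 17.2, 19.5 and 19.2 in GAG-41B. None of its 3 tested contrasts passed.

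MYB4 (Vv01s0011g04760), a repressor of phenylpropanoid genes, went the other way. Its levels were 174, 172 and 177 FPKM in GAG-1103P, 112, 107 and 117 in GAG-17-37, 82.4, 101 and 93.8 in GAG-3309C, 73.9, 65.4 and 75.8 in GAG-KOB and 23.1, 20.6 and 20.7 in GAG-41B. In GAG-KOB it fell by 0.36 ± 0.08 against GAG-3309C and fell by 0.64 ± 0.08 against GAG-17-37 (adjusted p = 0.0029 and 4.29e-05).

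The annotation gives MYB102, a factor induced by wounding and osmotic stress, to a pair of genes with opposite patterns. Vv14s0036g00460 was at 2.34, 2.56 and 1.65 FPKM in GAG-1103P and 17.8, 14.4 and 21.4 in GAG-41B. Vv19s0014g03820 was at 5.81, 6.63 and 5.81 FPKM in GAG-1103P and 1.30, 0.711 and 0.763 in GAG-41B, and in GAG-3309C at 0.562, 0.965 and 0.765, below GAG-KOB with 3.44, 2.199 and 3.18. Against GAG-3309C it rose in GAG-KOB by 1.82 ± 0.25 (adjusted p = 0.000107), and against GAG-17-37 it fell by 1.10 ± 0.25 in GAG-3309C (adjusted p = 0.00928), which was lost in a fit of the 6 libraries alone (adjusted p = 0.0514).

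The remaining MYB genes were low, and MYB85, MYB17, MYB73 and MybA1 are named after their values were seen. MYB92 (Vv00s0203g00170) and MYB85 (Vv00s1241g00010), the latter a regulator of lignin deposition, had 5.25 and 0.930 FPKM in GAG-1103P and 1.28 and 0.176 in GAG-41B. MYB17 (Vv16s0050g00070) and MYB73 (Vv18s0001g11170) were at 1.18 and 1.77 FPKM in GAG-41B and under 1 FPKM elsewhere. MYB73 rose in GAG-KOB against GAG-17-37 by 1.77 ± 0.48 (adjusted p = 0.0122), a call lost without GAG-KOB replicate C or without GAG-17-37 replicate A (adjusted p = 0.0503 to 0.0572).

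MybA1 (Vv02s0033g00410), the grapevine factor that switches on anthocyanin synthesis in berry skin, had 1.45, 1.71 and 0.999 FPKM in GAG-1103P and 0.175, 0.493 and 0.248 in GAG-3309C. Its libraries in GAG-41B, 0.874, 1.96 and 0.224 FPKM, spread over nearly the whole range, and none of its tested contrasts passed.

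The 6 MYB-related genes all had lower levels in GAG-41B than in GAG-1103P, with a median of -2.70. In GAG-KOB 5 of the 6 fell against GAG-3309C and 3 against GAG-17-37, where 16.2% and 15.9% of all genes tested did. CAPRICE is a short MYB protein with a single repeat that lacks an activation domain and represses trichome formation while favoring root hairs, and 3 genes carried its name.

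The most abundant CAPRICE gene, Vv12s0059g02360, was at 388, 370.2 and 409 FPKM in GAG-1103P and 39.3, 47.4 and 48.2 in GAG-41B. Vv10s0116g00500 was at 203, 177 and 171 FPKM in GAG-1103P and 15.9, 15.99 and 17.3 in GAG-41B. Vv10s0116g01760 was at 53.0, 52.6 and 47.7 FPKM in GAG-1103P, 28.3, 33.8 and 40.7 in GAG-17-37, 39.95, 36.2 and 51.9 in GAG-3309C, 19.0, 15.2 and 26.7 in GAG-KOB and 2.10, 6.48 and 2.11 in GAG-41B. In all 3 genes the libraries of GAG-41B lay below every other library. In GAG-KOB against GAG-3309C, Vv12s0059g02360 fell by 0.70 ± 0.13 (adjusted p = 0.00123). Vv10s0116g01760 fell by 1.09 ± 0.35 (adjusted p = 0.0298), which was lost without GAG-KOB replicate A or B, without GAG-3309C replicate A or C, with no filter on low values or without the 5 replicates A (adjusted p = 0.054 to 0.124), while Vv10s0116g00500 did not pass (-0.33, adjusted p = 0.077). ADA2a (Vv12s0057g00920), an adaptor of histone acetyltransferase complexes, was at 17.8 ± 2.31 FPKM in GAG-1103P and 3.59 ± 0.483 in GAG-41B.

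Among the 4 G2-like genes was GPRI1 (GOLDEN2 1, Vv12s0028g03100), a factor that drives chloroplast development and the genes of the light-harvesting complexes. It was at 75.0, 81.0 and 79.6 FPKM in GAG-1103P, 48.2, 52.5 and 47.6 in GAG-17-37, 44.0, 54.1 and 49.1 in GAG-3309C, 32.4, 38.2 and 38.1 in GAG-KOB and 8.41, 9.95 and 9.06 in GAG-41B. In GAG-KOB it fell by 0.43 ± 0.09 against GAG-3309C (adjusted p = 0.00218) and fell by 0.45 ± 0.09 against GAG-17-37 (adjusted p = 0.0019).

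The study's list held 18 genes of photosynthesis and chlorophyll networks beside it, chosen on these libraries as well. Of these, 9 were at least 4-fold higher in GAG-41B and 6 at least 4-fold lower, with a median of 1.79. For example, a CAB-1 gene of light-harvesting complex II, Vv10s0003g02890, was at 42.9 ± 1.62 FPKM in GAG-1103P and 282 ± 12.2 in GAG-41B, whereas PETC of the cytochrome b6f complex, Vv12s0134g00510, was at 76.8 ± 4.23 FPKM in GAG-1103P and differed by -2.67 in GAG-41B.

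The G2-like gene with the largest difference was Vv07s0197g00060, with 37.8, 45.3 and 45.1 FPKM in GAG-1103P and 1.67, 2.49 and 1.72 in GAG-41B. It fell by 0.74 ± 0.14 in GAG-KOB against GAG-3309C (adjusted p = 0.000976). Its rise of 0.48 ± 0.14 in GAG-3309C against GAG-17-37 (adjusted p = 0.0276) was lost without GAG-3309C replicate B or C, without GAG-17-37 replicate A or C or without the 5 replicates A (adjusted p = 0.0647 to 0.0955). KANADI 2 (Vv16s0039g01900), which specifies the lower leaf side, was at 3.07 ± 0.182 FPKM in GAG-1103P and 0.705 ± 0.191 in GAG-41B, and the fourth gene, Vv01s0137g00050, was the only one with a higher level in GAG-41B (1.27 ± 0.332 and 8.46 ± 0.518 FPKM).

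**Figure D3:**
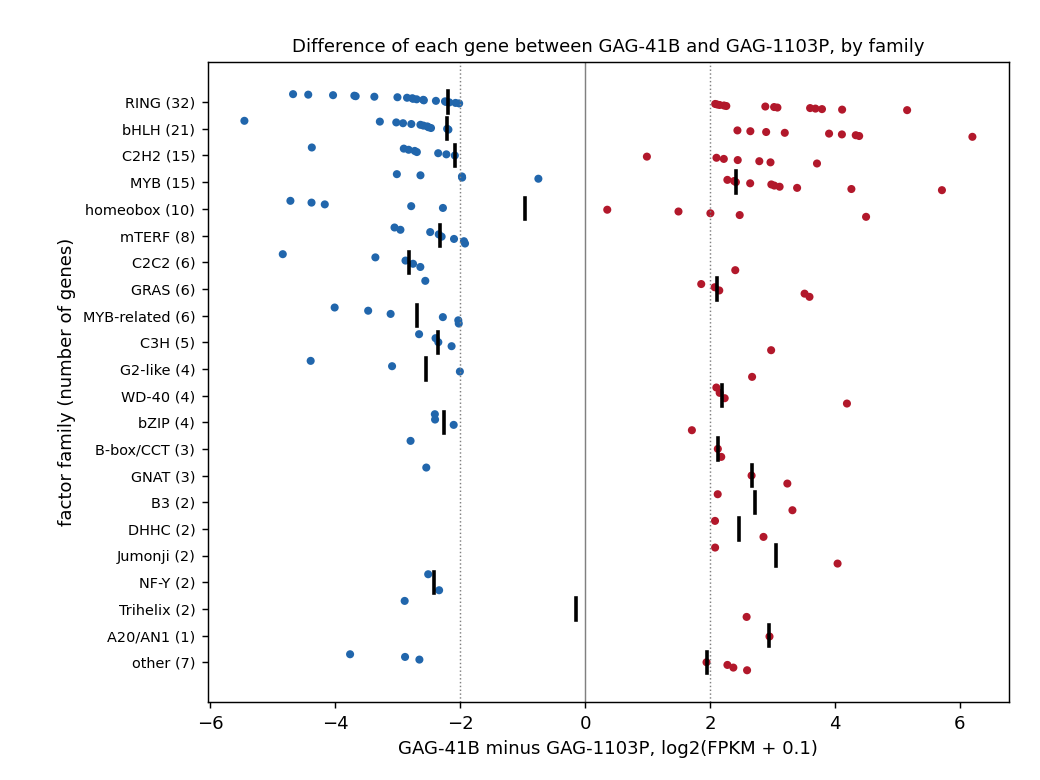
Difference between GAG-41B and GAG-1103P for each gene (dots), by family, on the log2(FPKM + 0.1) scale, with the median of the family as a black bar and dotted lines at 4-fold. MYB, GRAS and WD-40 genes lie mostly at higher levels in GAG-41B, and MYB-related, mTERF, C2C2 and C3H genes at lower ones. The genes were chosen by such differences, so the gap between the dotted lines is a product of the choice.

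Homeobox genes numbered 10, and 5 of them were at least 4-fold lower and 3 at least 4-fold higher in GAG-41B. In the tested contrasts 3 rose in GAG-KOB against GAG-3309C, 4 rose and 3 fell against GAG-17-37, and 3 rose and 3 fell in GAG-3309C against GAG-17-37. The rises in GAG-KOB include KNAT6 and KNAT1, described below, whose choice for the list favored or may have favored a high level there. Passing shares of all genes tested were 34.9%, 33.3% and 16.9%. The lowest levels relative to GAG-1103P were those of leucine zipper proteins.

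HB-7 (Vv15s0048g02870) and ATHB-12 (Vv02s0025g02590) are related factors induced by ABA and water deficit. HB-7 was at 236, 312 and 321 FPKM in GAG-1103P and 234, 332 and 322 in GAG-17-37, so that these combinations overlapped. Its levels were 130.4, 183 and 187 in GAG-3309C, 113, 154 and 166 in GAG-KOB and 9.02, 12.1 and 11.6 in GAG-41B. Against GAG-17-37 it fell by 1.04 ± 0.20 in GAG-KOB (adjusted p = 0.00144). It also fell by 0.83 ± 0.20 in GAG-3309C (adjusted p = 0.0124), which was lost without GAG-17-37 replicate B or C (adjusted p = 0.0511 to 0.0528). GAG-KOB and GAG-3309C differed by -0.21 and did not pass (adjusted p = 0.467).

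ATHB-12 was at lower levels. It was at 80.6, 99.3 and 97.8 FPKM in GAG-1103P, 68.6, 82.4 and 86.1 in GAG-17-37, 33.4, 52.4 and 51.6 in GAG-3309C, 39.3, 47.6 and 45.4 in GAG-KOB and 3.21, 6.12 and 6.47 in GAG-41B. GAG-3309C and GAG-KOB overlapped each other below GAG-17-37. Against GAG-17-37 it fell by 0.84 ± 0.24 in GAG-KOB (adjusted p = 0.0163), which was lost without GAG-KOB replicate A or without GAG-17-37 replicate C (adjusted p = 0.0561 to 0.0568). It fell by 0.81 ± 0.24 in GAG-3309C (adjusted p = 0.0355), which was lost without GAG-3309C replicate A, without GAG-17-37 replicate B or C, with no filter on low values or in a fit of the 6 libraries alone (adjusted p = 0.0535 to 0.122). In each of the 5 combinations the library A was the lowest for both genes.

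HB-1 (Vv01s0026g01550) was at 144, 161 and 158 FPKM in GAG-1103P and 7.50, 7.09 and 7.32 in GAG-41B, with 66.1 to 111 FPKM in the other 9 libraries. Of those it was lowest in GAG-3309C, where it fell by 0.47 against GAG-17-37 (adjusted p = 0.00136). ATHB-6 (Vv18s0001g06430), a regulator in the ABA response, was at 2.25 ± 0.459 FPKM in GAG-1103P and 0.396 ± 0.156 in GAG-41B, and zinc finger homeobox 21 (Vv12s0035g01880) at 4.60 ± 0.157 and 0.600 ± 0.190.

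Beside them, 19 other genes of the ABA synthesis and signaling networks were in the study's list, of which 9 were at least 4-fold higher and 7 at least 4-fold lower in GAG-41B, with a median of 1.74. In GAG-KOB 10 of the 19 rose and 5 fell against GAG-3309C, where 18.7% and 16.2% of all genes did. Against GAG-17-37, 8 rose and 6 fell in GAG-KOB, where 17.4% and 15.9% of all genes did. In GAG-3309C against GAG-17-37, 2 rose and 8 fell, where 7.37% and 9.53% of all genes did. Among the lower ones was 9-cis-epoxycarotenoid dioxygenase, the enzyme of the first committed step of ABA synthesis, with 83.2 ± 6.17 FPKM in GAG-1103P and 2.80 ± 0.581 in GAG-41B for Vv02s0087g00930. A second gene of this enzyme, Vv19s0093g00550, and ABA2 (ABA DEFICIENT 2, Vv13s0019g01010) also had lower levels in GAG-41B, with differences of -2.43 and -2.29. No gene with these annotations was among the higher ones. The higher ones included a pair of alternative oxidase genes, mitochondrial enzymes that bypass part of the respiratory chain, with 22.6 ± 0.947 and 538 ± 29.2 FPKM for Vv02s0033g01380.

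Of the 3 homeobox genes past 4-fold with higher levels in GAG-41B, 2 were others of the leucine zipper type and the third was the homeodomain-like Vv06s0004g01900. The gene annotated as homeobox-leucine zipper protein 14, Vv08s0007g06670, was at 2.29, 2.47 and 2.18 FPKM in GAG-1103P, 6.86, 7.34 and 7.79 in GAG-17-37, 10.8, 11.3 and 11.3 in GAG-3309C, 12.99, 14.4 and 11.3 in GAG-KOB and 49.3, 57.3 and 56.8 in GAG-41B. It rose against GAG-17-37 by 0.80 ± 0.09 in GAG-KOB and 0.60 ± 0.09 in GAG-3309C (adjusted p = 3.06e-05 and 0.000784). HB-17 (Vv01s0011g04870) was at 6.47 ± 0.432 FPKM in GAG-1103P, 12.03 ± 1.64 in GAG-KOB and 36.4 ± 2.67 in GAG-41B, and rose in GAG-KOB against GAG-3309C by 0.97 ± 0.20 (adjusted p = 0.00212).

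KNAT1 and KNAT6 are knotted-like homeobox genes that keep meristem cells undifferentiated and are usually off in leaf blades. Both were low and are named here after their values were seen. KNAT6 (Vv14s0060g01180) was at 0.420, 0.292 and 0.250 FPKM in GAG-1103P, 0.401, 0.251 and 0.428 in GAG-17-37, 0.932, 1.11 and 0.928 in GAG-3309C, 1.73, 2.15 and 1.86 in GAG-KOB and 0.298, 0.517 and 0.505 in GAG-41B. GAG-KOB and GAG-3309C stood above all other libraries and did not overlap each other, while GAG-41B overlapped GAG-1103P.

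KNAT6 was past 4-fold from GAG-1103P in GAG-KOB but not in GAG-41B, so its level in GAG-KOB put it in the list. Its differences in GAG-KOB are therefore a description with no test. They were 2.15 ± 0.24 from GAG-17-37, the largest rise of the 160 genes in that contrast, and 0.88 ± 0.24 from GAG-3309C. In GAG-3309C KNAT6 rose against GAG-17-37 by 1.26 ± 0.24 (adjusted p = 0.00291). KNAT1 (Vv18s0001g08380) was at 0.0970, 0.151 and 0.0685 FPKM in GAG-17-37, 0.308, 0.443 and 0.396 in GAG-3309C, and in GAG-KOB 0.209, 0.649 and 0.905. The largest log2 ratio of its mean FPKM to that in GAG-1103P was 2.43, and its level in GAG-KOB may have put it in the list. Its difference in GAG-KOB from GAG-17-37, 1.60 ± 0.39, is therefore also a description with no test. In GAG-3309C KNAT1 rose against GAG-17-37 by 1.24 ± 0.39 (adjusted p = 0.0484). That call was lost without GAG-3309C replicate A, B or C, without GAG-17-37 replicate A, B or C, with a pseudocount of 1, with no filter on low values, with quantile normalization or in a fit of the 6 libraries alone (adjusted p = 0.0626 to 0.146).

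**Figure D4:**
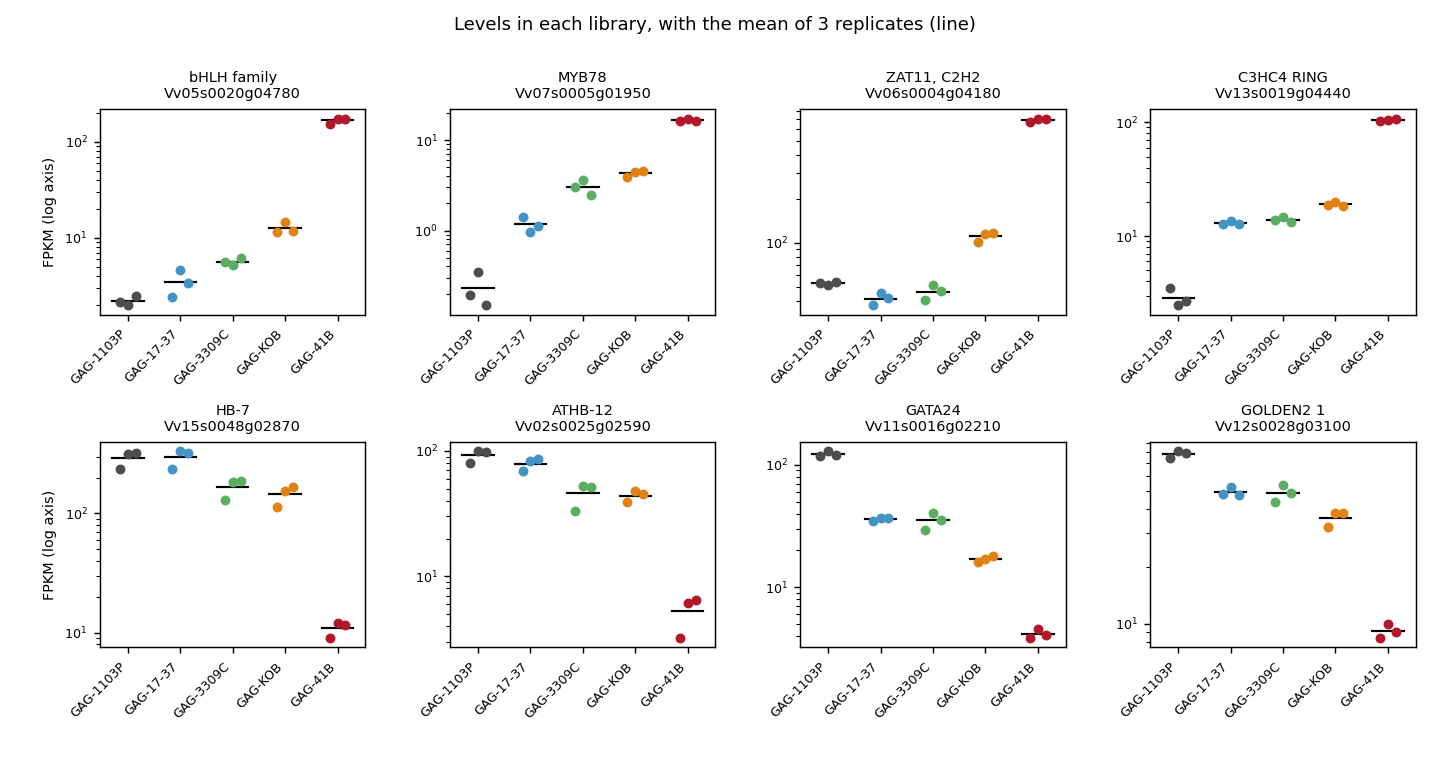
Levels in FPKM (log axis) of 8 genes in each library, with dots for the 3 replicates and a line for their mean, for 4 genes higher and 4 lower in GAG-41B. In the upper panels GAG-41B lies above every other library, with a mean of up to 694 FPKM for ZAT11. In the lower panels it lies below every other library, with a mean down to 4.16 FPKM for GATA24. HB-7 and ATHB-12 fall into a higher pair (GAG-1103P and GAG-17-37) and a lower pair (GAG-3309C and GAG-KOB).

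The bHLH family, with 21 genes, held the genes with the highest and the lowest level in GAG-41B relative to GAG-1103P. In all, 9 were at least 4-fold higher and 12 at least 4-fold lower there. In the tested contrasts 10 rose and 3 fell in GAG-KOB against GAG-3309C (7 and 5 with equal FPKM totals). Against GAG-17-37, 9 rose and 6 fell in GAG-KOB (8 and 8 with equal FPKM totals), and 5 rose and 3 fell in GAG-3309C. Shares of all genes tested that passed were 34.9%, 33.3% and 16.9%.

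The former was Vv05s0020g04780. It was at 2.14, 1.98 and 2.47 FPKM in GAG-1103P, 2.42, 4.62 and 3.39 in GAG-17-37, 5.59, 5.22 and 6.12 in GAG-3309C, 11.6, 14.7 and 11.7 in GAG-KOB and 155, 176 and 174 in GAG-41B. The mean in GAG-41B was 76.6 times that in GAG-1103P, and GAG-17-37 overlapped GAG-1103P. It also rose in GAG-KOB, by 1.87 ± 0.18 against GAG-17-37 and 1.14 ± 0.18 against GAG-3309C (adjusted p = 7.37e-06 and 0.000342).

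The latter was Vv14s0128g00110. Its levels were 49.8, 49.3 and 43.7 FPKM in GAG-1103P, 34.9, 36.5 and 34.8 in GAG-17-37, 31.5, 40.9 and 39.3 in GAG-3309C, 14.7, 16.8 and 15.2 in GAG-KOB and 1.02, 1.06 and 0.878 in GAG-41B. GAG-KOB lay below GAG-3309C and GAG-17-37 without overlap. There it fell by 1.25 ± 0.10 against GAG-3309C and fell by 1.18 ± 0.10 against GAG-17-37 (adjusted p = 1.27e-06 and 2.59e-06).

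Other bHLH genes with high levels in GAG-41B rose in GAG-3309C against GAG-17-37. Vv11s0052g00100 was at 6.48, 10.2 and 7.45 FPKM in GAG-17-37, 16.6, 20.5 and 21.3 in GAG-3309C, 12.6, 17.2 and 17.9 in GAG-KOB and 108, 127 and 132 in GAG-41B. It rose in GAG-3309C against GAG-17-37 by 1.28 ± 0.18 (adjusted p = 0.000309). Vv12s0028g03550 rose by 1.11 ± 0.27 in the same contrast (adjusted p = 0.0137), from 0.735, 2.11 and 1.36 to 2.43, 3.81 and 2.62 FPKM, and reached 41.5, 38.1 and 44.6 FPKM in GAG-41B. That rise was lost without GAG-3309C replicate B or in a fit of the 6 libraries alone (adjusted p = 0.0599 to 0.138).

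ILR3 (Vv05s0049g00460), a regulator of iron homeostasis, was at 24.3, 28.2 and 26.2 FPKM in GAG-1103P, 26.1, 35.1 and 29.4 in GAG-17-37, 33.1, 45.9 and 42.3 in GAG-3309C, 51.4, 58.7 and 61.4 in GAG-KOB and 133, 144 and 151 in GAG-41B. In GAG-KOB it rose by 0.51 ± 0.13 against GAG-3309C and 0.92 ± 0.13 against GAG-17-37 (adjusted p = 0.00801 and 0.000133). A rise of 0.42 in GAG-3309C against GAG-17-37 (adjusted p = 0.0441) was lost without GAG-3309C replicate B or C, without GAG-17-37 replicate A or C, with no filter on low values or in a fit of the 6 libraries alone (adjusted p = 0.0812 to 0.172). ICE1, an activator of the cold response and of stomatal development, is the name of a pair of genes with lower levels in GAG-41B. Vv01s0244g00130 was at 30.6 ± 1.64 FPKM in GAG-1103P and 5.23 ± 0.253 in GAG-41B, and Vv17s0000g00330 at 3.53 ± 0.0495 and 0.386 ± 0.0807. The former fell by 0.90 ± 0.12 in GAG-KOB against GAG-3309C (adjusted p = 7.53e-05).

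Of the bHLH genes named here after their values were seen, Vv11s0016g02070 went from 16.1 FPKM in GAG-1103P over 36.8 in GAG-17-37, 53.4 in GAG-3309C and 94.9 in GAG-KOB to 242 in GAG-41B. Vv18s0001g08040 was an exception to the common order. It was at 35.1, 40.9 and 39.3 FPKM in GAG-KOB, above all other libraries, and at 4.27, 2.74 and 3.75 in GAG-41B, below all others, and rose in GAG-KOB by 0.58 ± 0.17 against GAG-3309C (adjusted p = 0.0181), which was lost without GAG-KOB replicate B or C, without GAG-3309C replicate A or with equal FPKM totals (adjusted p = 0.0524 to 0.0751).

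Only 4 bZIP genes were in the list. BZIP53 (Vv05s0077g01140), which activates genes of amino acid metabolism under energy starvation, was among the most abundant of the 160 genes in GAG-1103P, with 412, 506 and 521 FPKM, and was at 76.1, 93.5 and 102 in GAG-41B. It fell by 0.72 ± 0.17 in GAG-KOB against GAG-3309C (adjusted p = 0.00595). GBF6 (BASIC LEUCINE-ZIPPER 11, Vv04s0023g02430), whose translation is repressed by sucrose, had an unusual order. It was at 16.6, 14.7 and 11.8 FPKM in GAG-1103P, 28.1, 28.4 and 25.8 in GAG-17-37, 23.7, 24.9 and 27.2 in GAG-3309C, 21.3, 19.8 and 21.0 in GAG-KOB and 3.42, 2.63 and 3.73 in GAG-41B. All 9 libraries of the middle combinations lay above GAG-1103P and all 3 of GAG-41B below it. In GAG-KOB it fell by 0.41 ± 0.13 against GAG-17-37 (adjusted p = 0.0315), which was lost without GAG-KOB replicate A, B or C, without GAG-17-37 replicate A or B, with no filter on low values or without the 5 replicates A (adjusted p = 0.0553 to 0.101). Another bZIP gene, Vv08s0007g06160, was at 0.381, 0.432 and 0.533 FPKM in GAG-1103P and 1.21 to 2.33 in the other 12 libraries, and HBP-1b (Vv01s0011g03230), named after its values were seen, was at 1.004 FPKM in GAG-1103P and 0.114 in GAG-41B.

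**Figure D5:**
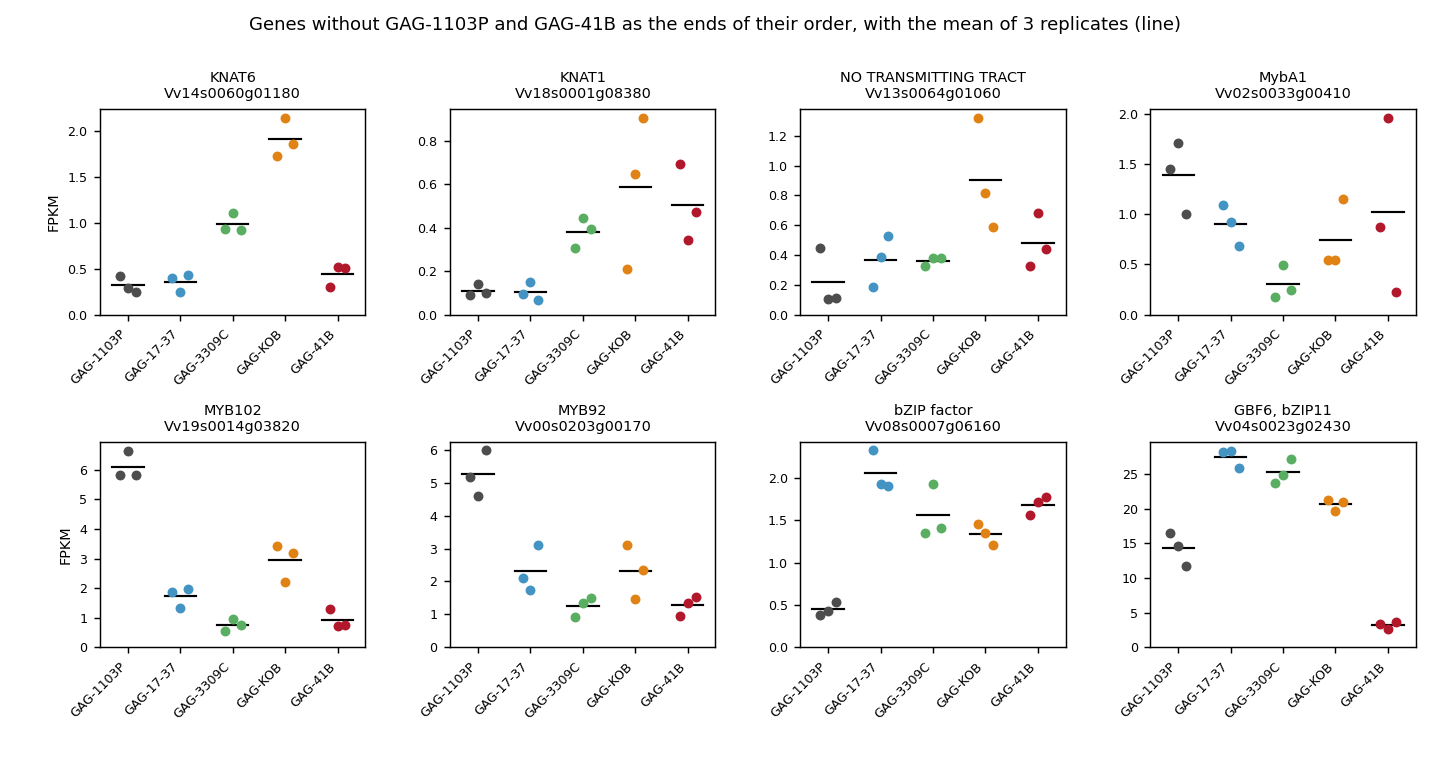
Levels in FPKM (linear axis from 0) of 8 genes in each library, with dots for the 3 replicates and a line for their mean, for genes in which GAG-1103P and GAG-41B were not the ends of the order. KNAT6 is highest in GAG-KOB (mean 1.91 FPKM), GBF6 is higher than GAG-1103P in 3 combinations and lower in GAG-41B, and most other panels are below 3 FPKM with replicates that overlap.

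C2H2 zinc fingers numbered 15, with 6 at least 4-fold higher and 8 at least 4-fold lower in GAG-41B. In GAG-KOB 6 rose and 2 fell against GAG-3309C and against GAG-17-37 alike (6 and 4 in the latter with equal FPKM totals), and 1 rose in GAG-3309C against GAG-17-37. Among all genes tested 34.9%, 33.3% and 16.9% passed in these contrasts. The higher ones included repressors of the stress response.

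ZAT11 (Vv06s0004g04180) had the highest level in GAG-41B relative to GAG-1103P in the family. It was at 53.2, 51.8 and 53.7 FPKM in GAG-1103P, 37.3, 45.6 and 41.7 in GAG-17-37, 40.4, 51.0 and 46.9 in GAG-3309C, 101, 115 and 116 in GAG-KOB and 669.6, 708 and 705 in GAG-41B. GAG-17-37 and GAG-3309C did not exceed GAG-1103P, whereas ZAT11 rose in GAG-KOB against each of them, by 1.41 ± 0.09 and 1.26 ± 0.09 (adjusted p = 1.97e-07 and 3.72e-07).

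SALT TOLERANCE ZINC FINGER, a repressor induced by salt, cold and drought, is the name of a pair of abundant genes. Vv18s0001g09230 was at 172, 150.2 and 141 FPKM in GAG-1103P, 447, 388 and 359 in GAG-KOB and 970.4, 776 and 778 in GAG-41B. Vv03s0091g00690 was at 74.5, 71.5 and 65.2 FPKM in GAG-1103P, 140.3, 133 and 129 in GAG-KOB and 332, 287 and 289 in GAG-41B. Both rose in GAG-KOB against GAG-3309C, by 0.85 ± 0.12 and 1.36 ± 0.08 (adjusted p = 0.000145 and 5.54e-08).

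On the other side, ZINC FINGER PROTEIN 3 (Vv09s0002g09080) was at 6.85, 7.32 and 7.07 FPKM in GAG-1103P and 0.226, 0.525 and 0.103 in GAG-41B, with 4.85 to 8.96 FPKM in the other 9 libraries. ZINC FINGER PROTEIN 4 was the name of 2 genes, Vv01s0011g06200 with 50.8 ± 1.87 and 7.88 ± 1.62 FPKM and Vv03s0091g00260 with 17.6 ± 3.01 and 3.70 ± 0.731 in GAG-1103P and GAG-41B. The former fell by 0.41 in GAG-KOB against GAG-3309C (adjusted p = 0.0242), which was lost without GAG-KOB replicate B or C or without GAG-3309C replicate A or B (adjusted p = 0.0712 to 0.0755), and the latter did not pass (-0.11, adjusted p = 0.626). ZINC FINGER PROTEIN 2 (Vv11s0052g01120) was at 2.27 ± 0.250 FPKM in GAG-1103P and 0.256 ± 0.0209 in GAG-41B. The gene with the largest fall in GAG-KOB against GAG-17-37, Vv17s0000g06820, was at 0.840, 1.61 and 1.17 FPKM in GAG-17-37 and 0.381, 0.693 and 0.171 in GAG-KOB, a difference of -1.44 ± 0.40 (adjusted p = 0.0143) that was lost without GAG-KOB replicate C, without GAG-17-37 replicate B or in a fit of the 6 libraries alone (adjusted p = 0.053 to 0.0648).

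Stress-associated proteins with A20 or AN1 zinc fingers are cytosolic or nuclear proteins whose genes respond to many stresses in rice and other plants. SAP4 (Vv08s0007g03530) was at 175, 166 and 164 FPKM in GAG-1103P, 258, 236 and 208 in GAG-17-37, 219, 225 and 201 in GAG-3309C, 373, 335 and 359 in GAG-KOB and 1478, 1217 and 1204 in GAG-41B. It was among the 3 genes with the highest mean over the libraries. SAP12 (Vv14s0066g01880), which the network places with C2H2, was at 16.5 ± 2.73 FPKM in GAG-1103P and 113 ± 8.58 in GAG-41B. In GAG-KOB against GAG-3309C, SAP4 rose by 0.73 ± 0.09 and SAP12 by 0.89 ± 0.10 (adjusted p = 4.70e-05 and 2.73e-05).

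CCCH zinc fingers often bind RNA. Of the 5 genes, 4 were at least 4-fold lower in GAG-41B and 1 at least 4-fold higher. The higher one, Vv13s0067g01070, was at 149, 138 and 140.4 FPKM in GAG-1103P, 171, 163 and 159.6 in GAG-17-37, 174, 163 and 151 in GAG-3309C, 361, 348 and 341 in GAG-KOB and 1145, 1111 and 1111 in GAG-41B. It rose in GAG-KOB by 1.11 ± 0.05 against GAG-3309C and 1.09 ± 0.05 against GAG-17-37 (adjusted p = 1.51e-08 and 3.26e-08), and GAG-3309C and GAG-17-37 differed by -0.01. Of the lower ones, Vv12s0057g00570 was at 73.3 ± 4.29 FPKM in GAG-1103P and 11.5 ± 1.02 in GAG-41B. Against each of GAG-3309C and GAG-17-37, 3 of the 5 genes fell in GAG-KOB and 1 rose, where 34.9% and 33.3% of all genes passed.

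RING fingers formed the largest group, with 32 genes, of which 13 were at least 4-fold higher and 19 at least 4-fold lower in GAG-41B. In GAG-KOB 12 rose and 10 fell against GAG-3309C (10 and 13 with equal FPKM totals), and 11 rose and 11 fell against GAG-17-37 (9 and 15). In GAG-3309C 4 rose and 3 fell against GAG-17-37. For all genes tested the passing shares were 34.9%, 33.3% and 16.9%. Most had no name beyond their finger.

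The most abundant of all 160 genes by its mean was a RING gene, Vv00s0264g00020. It was at 189.6, 173 and 189 FPKM in GAG-1103P, 318, 321 and 321 in GAG-17-37, 259, 271 and 283 in GAG-3309C, 626, 601 and 616 in GAG-KOB and 2298, 2203 and 2192 in GAG-41B. Against GAG-3309C it rose in GAG-KOB by 1.18 ± 0.05 (adjusted p = 3.28e-09). Vv13s0019g04440 was the only one of the 160 genes past 4-fold in all 4 combinations. Its levels were 3.47, 2.47 and 2.71 FPKM in GAG-1103P and 103, 105 and 108 in GAG-41B, with 12.8 to 13.6 in GAG-17-37, 13.2 to 14.6 in GAG-3309C and 18.5 to 19.9 in GAG-KOB. GAG-1103P thus stood apart from the middle combinations by more than these from each other.

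The RING gene lowest in GAG-41B relative to GAG-1103P was Vv02s0025g03070, at 192, 179 and 149 FPKM in GAG-1103P, 139, 129.6 and 133 in GAG-17-37, 71.1, 84.4 and 69.7 in GAG-3309C, 102, 82.5 and 79.4 in GAG-KOB and 7.18, 6.73 and 6.05 in GAG-41B. It fell by 0.84 ± 0.12 in GAG-3309C against GAG-17-37 (adjusted p = 0.000304). A similar step marked Vv12s0057g01330, with 65.1, 61.6 and 55.4 FPKM in GAG-17-37, 31.2, 28.7 and 24.7 in GAG-3309C, and in GAG-KOB 49.8, 48.8 and 43.5. It fell by 1.11 ± 0.09 in GAG-3309C against GAG-17-37 (adjusted p = 7.38e-06), more than any other of the 160 genes that averaged 1 FPKM or more and did not overlap there.

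RING-H2 finger A2A (Vv07s0031g01270), a ligase that promotes ABA responses, was highest in GAG-3309C. It was at 49.3, 56.8 and 57.1 FPKM in GAG-1103P, 46.0, 55.4 and 60.0 in GAG-17-37, 89.2, 92.8 and 84.2 in GAG-3309C, 30.3, 35.5 and 38.9 in GAG-KOB and 4.65, 5.83 and 5.01 in GAG-41B. It had the largest fall of the 160 genes in GAG-KOB against GAG-3309C, -1.35 ± 0.12 (adjusted p = 2.22e-06), and it rose in GAG-3309C against GAG-17-37 by 0.73 ± 0.12 (adjusted p = 0.000978). An abundant RING gene with nearly as large a fall, Vv06s0061g00710, was at 283, 366 and 369 FPKM in GAG-3309C and 133, 133 and 141 in GAG-KOB (-1.31 ± 0.08, adjusted p = 1.45e-07).

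ATL genes encode membrane-bound RING-H2 ligases, several of which are induced by elicitors. ATL3B (Vv14s0128g00120) was at 131 ± 11.99 FPKM in GAG-1103P and 611 ± 27.4 in GAG-41B, and ATL1E (Vv02s0025g01430) at 6.43 ± 1.21 and 52.5 ± 2.99. ATL1E rose in GAG-KOB by 1.65 ± 0.11 against GAG-3309C and 1.32 ± 0.11 against GAG-17-37 (adjusted p = 3.19e-07 and 2.53e-06). ATL4E (Vv18s0089g00860) went the other way, with 5.68, 4.73 and 4.97 FPKM in GAG-1103P, 4.91, 4.80 and 3.68 in GAG-17-37, 2.05, 2.12 and 1.80 in GAG-KOB and 1.44, 1.23 and 0.937 in GAG-41B, and fell by 1.12 ± 0.16 in GAG-KOB against GAG-17-37 (adjusted p = 0.000138). SBP1 (Vv01s0127g00360), named after proteins that bind S-ribonuclease in pollen incompatibility, was at 11.9 ± 1.18 FPKM in GAG-1103P, 41.4 ± 4.12 in GAG-KOB and 101 ± 6.52 in GAG-41B.

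The 6 C2C2 zinc fingers were 3 GATA and 3 Dof factors, the latter a family found only in plants. GATA24 (Vv11s0016g02210) was at 118, 129 and 119 FPKM in GAG-1103P, 34.6, 36.9 and 36.8 in GAG-17-37, 29.5, 40.5 and 35.3 in GAG-3309C, 16.1, 17.1 and 18.0 in GAG-KOB and 3.85, 4.59 and 4.05 in GAG-41B. In GAG-KOB it fell by 1.03 ± 0.10 against GAG-3309C and fell by 1.08 ± 0.10 against GAG-17-37 (adjusted p = 5.99e-06 and 5.09e-06), while GAG-3309C and GAG-17-37 overlapped. GATA11 (Vv08s0007g07550) was at 82.8 ± 12.1 FPKM in GAG-1103P and 11.2 ± 2.11 in GAG-41B. GATA14 (Vv04s0023g02880) was the exception of the group with 7.61 ± 0.120 FPKM in GAG-1103P and 40.7 ± 1.90 in GAG-41B, and rose in GAG-KOB against both GAG-3309C (0.47, adjusted p = 0.00296) and GAG-17-37 (0.58, adjusted p = 0.000739).

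All 3 Dof genes had their lowest levels in GAG-41B. OBF BINDING PROTEIN 4 (Vv17s0000g04850), a Dof factor that restrains cell growth, was at 51.6, 47.6 and 49.4 FPKM in GAG-1103P, 33.4, 33.1 and 32.1 in GAG-17-37, 20.2, 19.5 and 20.1 in GAG-3309C, 37.1, 37.7 and 38.4 in GAG-KOB and 4.95, 4.25 and 5.05 in GAG-41B. It rose in GAG-KOB against GAG-3309C by 0.92 ± 0.06 (adjusted p = 2.58e-07). DOF1.4 (Vv10s0003g00040) was at 18.1 to 27.3 FPKM in the 12 libraries outside GAG-41B and at 3.62, 4.69 and 2.46 in GAG-41B, and DOF4.7 (Vv00s0218g00040), which takes part in the shedding of flower organs and is named after its values were seen, was at 1.30 and 0.157 FPKM.

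GRAS factors numbered 6, of which 5 were higher in GAG-41B, 4 of them at least 4-fold. SCL14, which activates detoxification genes together with bZIP factors of the TGA type, was the annotation of 4 genes with neighboring identifiers. Fragments of such similar neighbors can be assigned to the wrong copy, so their values are uncertain. Vv06s0004g04950 was at 118, 109.8 and 116 FPKM in GAG-1103P, 265, 252 and 249.5 in GAG-KOB and 511, 509 and 503 in GAG-41B, and Vv06s0004g04960 at 57.4 ± 1.88, 117 ± 3.19 and 242 ± 1.40. Both rose in GAG-KOB against GAG-3309C, by 0.94 ± 0.05 and 0.80 ± 0.04 (adjusted p = 6.97e-08 and 4.19e-08).

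The other SCL14 genes were low. Vv06s0004g04990 was at 0.478, 0.639 and 0.483 FPKM in GAG-1103P and 7.03, 7.28 and 8.19 in GAG-41B, Vv06s0004g04970 at 0.0946, 0.0475 and 0.0509 and 1.74, 1.79 and 1.75, and neither passed a test between the middle combinations. SCL7 (Vv04s0023g01660), a GRAS factor linked to tolerance of salt and drought in poplar, was at 49.1, 41.9 and 40.04 FPKM in GAG-1103P and 7.88, 6.89 and 7.17 in GAG-41B. It fell in GAG-KOB against GAG-3309C (-0.40, adjusted p = 0.00831) and GAG-17-37 (-0.54, adjusted p = 0.0013).

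All 8 mTERF genes had lower levels in GAG-41B than in the reference, with differences between -3.05 and -1.92 and a median of -2.32. With limma 0 of them passed in the 3 tested contrasts, where 34.9%, 33.3% and 16.9% of all genes did. Of the 8 genes, 2 had an unadjusted limma p under 0.05, both lower in GAG-KOB than in GAG-3309C. Vv08s0007g02500 was the highest of them, at 19.6, 13.9 and 15.03 FPKM in GAG-1103P, 12.97, 9.73 and 10.04 in GAG-17-37, 9.30, 10.4 and 8.14 in GAG-3309C, 10.4, 7.01 and 8.05 in GAG-KOB and 2.45, 1.16 and 2.18 in GAG-41B. Its libraries in GAG-KOB and GAG-3309C overlapped. Neighboring identifiers with the uncertainty named above for SCL14 were those of Vv05s0020g01630 and Vv05s0020g01640, with 4.91 ± 0.519 and 5.87 ± 0.819 FPKM in GAG-1103P and 1.23 ± 0.321 and 1.47 ± 0.121 in GAG-41B. A further set of neighbors had means of 1.04 (Vv07s0104g01500), 6.98 (Vv07s0104g01530) and 3.18 (Vv07s0104g01550) FPKM in GAG-1103P and 0.0547, 1.59 and 0.538 in GAG-41B.

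WD-40 genes, 4 in number, were all at least 4-fold higher in GAG-41B. Vv03s0063g01790, annotated as a transducin protein, was at 15.1, 14.02 and 14.1 FPKM in GAG-1103P, 13.1, 13.1 and 13.9 in GAG-17-37, 8.27, 10.4 and 9.10 in GAG-3309C, 29.3, 27.1 and 27.4 in GAG-KOB and 262, 264 and 267 in GAG-41B. It fell by 0.53 ± 0.07 in GAG-3309C against GAG-17-37 (adjusted p = 0.000249), and it rose in GAG-KOB against GAG-3309C by 1.59 ± 0.07 (adjusted p = 8.65e-09). The other WD-40 genes, named after their values were seen, were at 60.5, 2.18 and 1.28 FPKM in GAG-41B (Vv02s0025g02240, Vv18s0001g11600 and Vv01s0137g00360).

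Proteins that modify histones or other proteins formed small groups. The neighboring GNAT genes Vv05s0020g03690 and Vv05s0020g03710, with the same uncertainty as SCL14, were at 75.8 ± 4.22 and 86.6 ± 3.76 FPKM in GAG-1103P and 481 ± 25.1 and 817 ± 19.0 in GAG-41B. Both rose in GAG-KOB against GAG-3309C, by 0.68 ± 0.10 and 0.72 ± 0.06 (adjusted p = 0.000127 and 8.16e-07), and the GNAT gene on another chromosome, Vv12s0059g00170, named after its values were seen, fell (-0.91, adjusted p = 0.00264). A gene with the jumonji domain of histone demethylases, Vv02s0012g01960, named after its values were seen, was at 7.15, 5.55 and 6.69 FPKM in GAG-1103P, 25.5, 24.5 and 24.8 in GAG-KOB and 116, 105 and 102 in GAG-41B.

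Among the B-box genes, which take part in light signaling, Vv09s0054g00530 rose most in GAG-KOB. It was at 28.1, 27.5 and 23.7 FPKM in GAG-1103P, 30.8, 34.0 and 30.5 in GAG-17-37, 18.6, 21.7 and 22.1 in GAG-3309C, 72.1, 78.8 and 79.7 in GAG-KOB and 119, 124 and 116 in GAG-41B. It rose in GAG-KOB by 1.88 ± 0.08 against GAG-3309C and 1.27 ± 0.08 against GAG-17-37 (adjusted p = 6.64e-09 and 2.40e-07). A similar order was found for a GT-1-like trihelix factor, Vv08s0105g00400, named after its values were seen, with means of 22.7 FPKM in GAG-3309C, 71.2 in GAG-KOB and 195 in GAG-41B. A B3 factor, Vv06s0004g08270, was at 0.446, 0.481 and 0.422 FPKM in GAG-3309C, below the 0.707, 0.674 and 1.504 of GAG-17-37. It fell by 0.87 ± 0.25 in that contrast (adjusted p = 0.0333), which was lost without GAG-3309C replicate A, B or C, without GAG-17-37 replicate C, with a pseudocount of 1, with no filter on low values, in a fit of the 6 libraries alone or without the 5 replicates A (adjusted p = 0.0532 to 0.181).

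NF-Y subunit B-3, part of a complex that binds CCAAT boxes and promotes flowering, was the annotation of 2 genes. Vv19s0015g00440 was at 28.2 ± 2.19 FPKM in GAG-1103P and 4.91 ± 1.001 in GAG-41B, and Vv00s0259g00180 at 4.18 ± 0.981 and 0.741 ± 0.165. BT4 (Vv07s0129g00210), a scaffold with BTB and TAZ domains, was at 1.44 ± 0.330 and 9.06 ± 0.512 FPKM, and CUP-SHAPED COTYLEDON2 (Vv15s0048g02320) at 0.933 ± 0.375 and 4.73 ± 1.09. The latter is a NAC factor by its domain, kept because its annotation does not carry that word. A C2H2 gene annotated as NO TRANSMITTING TRACT (Vv13s0064g01060), named after its values were seen and known from the path of the pollen tube, was at 0.103 to 1.32 FPKM over all libraries.

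Further single genes, named after their values were seen, were abundant. A PLATZ zinc finger gene, Vv18s0122g00320, was at 176 ± 4.98 FPKM in GAG-1103P, 90.6 ± 4.24 in GAG-KOB and 27.8 ± 0.945 in GAG-41B, and a zinc knuckle gene, Vv12s0028g00670, at 76.5 ± 4.55, 27.3 ± 2.58 and 5.57 ± 0.803. A DHHC zinc finger gene, Vv17s0000g00800, of a kind that attaches palmitate to proteins, was at 43.3 ± 0.839, 131 ± 2.98 and 314 ± 12.5. In GAG-KOB against GAG-3309C, Vv12s0028g00670 fell by 1.05 ± 0.11 (adjusted p = 1.24e-05). Vv17s0000g00800 rose by 0.28 ± 0.04 (adjusted p = 0.000184), which was lost with equal FPKM totals (adjusted p = 0.0725).

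Compared with the factor families left out, the 160 genes were divided more evenly between higher and lower levels. Of the 28 WRKY genes of the category, 26 were at least 4-fold higher in GAG-41B and 1 at least 4-fold lower, with a median of 3.33, and of the 18 NAC genes 14 and 2, with a median of 2.40. In GAG-KOB against GAG-3309C, 24 of the WRKY genes rose and 2 fell, and 11 of the NAC genes rose and 1 fell. There 18.7% of all genes tested rose and 16.2% fell. The medians there were 0.89 for WRKY, 0.43 for NAC and 0.13 for the 160 genes. The study had picked all of these genes from these libraries, and the difference between them was not tested.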

How the data were processed

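RNA-seq of leaves had been done on 15 libraries, 3 for each of 5 graft combinations, and groups and replicate letters were taken from the sample titles. The submitters' processing notes name CASAVA 1.8.2, Bowtie2 2.2.4, TopHat2 2.0.14, Cufflinks 2.2.0 and DESeq 1.6.3. The authors mapped reads to the PN40024 genome and deposited 1 matrix of FPKM values of 29970 genes. The deposited values hold no fragment counts, so no counting error is given, and the read numbers that the study tabulates for each library were not used here.

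The 160 genes and all lists were chosen with earlier results of these data known. They come from the category of transcription factor activity in the study's list, with families after the list's network and annotation columns. No identifier matched the RefSeq table at hand, so that neither coordinates nor sequences are given.

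The 21364 genes that averaged 0.1 FPKM or more in the 15 libraries entered a limma fit (limma 3.58.1, R 4.3.3) on log2(FPKM + 0.1), with 1 mean per combination, a trend of variance on level, two-sided tests and Benjamini-Hochberg adjustment over all genes tested. All adjusted p-values are from limma, with a threshold of 0.05. Errors beside differences are standard errors and errors beside FPKM are SDs of 3 libraries, which measure the spread between pools of plants in 1 block. The fit was tested on simulated data. Summaries used Python 3.11.15, pandas 2.3.3 and numpy 2.4.6, and plots matplotlib 3.10.9.

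Named genes (83) were taken by rule. In each family of at least 4 genes these were the highest and the lowest of GAG-41B relative to GAG-1103P, and for every tested contrast the 3 called genes with the largest change in each direction, both among genes with a mean of 1 FPKM or more whose groups did not overlap. Added were genes of that level annotated as an individual factor, genes of 1 annotation whose identifiers were at most 50 apart, and the 3 most abundant genes. Alternatives were pseudocounts of 1 and 0.01, no filter and a mean of 1 FPKM, equal FPKM totals, quantile normalization, a replicate block, only the libraries of the 2 combinations compared, each replicate left out, and an adjusted p of 0.005. Leaving out the 5 replicates A was added after the data were seen.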

Additional observations from a re-analysis of the deposited data

How the results depend on the processing

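The counts of genes that passed in GAG-KOB against GAG-3309C (86) and against GAG-17-37 (93) stayed within 1.5 times of these values in all alternatives run, as did the 149 genes at least 4-fold from GAG-1103P in GAG-41B. In GAG-3309C against GAG-17-37, 40 genes passed, 25 in a fit of the 6 libraries alone. At least 4-fold from GAG-1103P were 14 genes in GAG-KOB and 8 in GAG-3309C, but 8 and 2 with a pseudocount of 1. In GAG-17-37 these were 2, against 0 with a pseudocount of 1, 6 with 0.01, 1 at a mean of at least 1 FPKM, 4 with equal FPKM totals and 1 without the 5 replicates A. With 1 replicate left out, 79 to 85, 74 to 86 and 28 to 37 genes passed in the 3 tested contrasts, and 143 to 150 genes in GAG-41B, 13 to 19 in GAG-KOB, 7 to 10 in GAG-3309C and 1 to 4 in GAG-17-37 were past 4-fold. Of the 86, 93 and 40 calls, 65, 65 and 20 also passed at an adjusted p of 0.005. At the threshold of 0.05, 19, 26 and 21 were lost in at least 1 of the other alternatives, and 13, 24 and 16 without 1 replicate. The difference of MYB62 (Vv17s0000g03560) between GAG-KOB and GAG-3309C was -0.00247 with equal FPKM totals (adjusted p = 0.979), a scaling that moved the median of all genes in this contrast to -0.15. Other causes were not tested. With the replicate letters as a block, 93, 101 and 57 genes passed and no call was lost. Libraries of the same letter deviated together weakly if at all over all the genes (r across genes from -0.05 to 0.14, against -0.10 to 0.10 for other letters). By letter, r was -0.002 to 0.14 for A, -0.05 to 0.04 for B and -0.04 to 0.03 for C. Library A was also the lowest of every combination for HB-7 and ATHB-12, and a shared effect on the A libraries was not tested. The letters were not taken as pairs. Genes below 1 FPKM have fold changes that depend on the pseudocount.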
